A study of Mus musculus with 20 samples.

Results

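Expression of 10 genes of resident macrophages and of iron recycling was compared in hearts of mice with and without iron-deficiency anemia. The genes were *Csf1r*, *Emr1* (the older symbol of *Adgre1*), *Cd68*, *Mrc1*, *Lyve1*, *C1qa*, *C1qb*, *C1qc*, *Cd163* and *Slc11a1*. They were chosen by symbol from the 23420 genes of the count table, without use of their measured values in the choice rule, and all 10 passed the filter on low counts. Messenger RNA of the whole heart was sequenced from 20 mice: 10 received a control diet, and 10 received an iron-deficient diet and were anemic (IDA mice). Mice in both groups were wild-type C57BL/6 males (C57BL/6J by the study's methods) of 9 weeks of age, which received their diet for 6 weeks from an age of 3 weeks. The labels disagree on the iron of the deficient diet, with less than 2 ppm in one place and more than 2 ppm in another. The study's methods give a range that starts at 2 ppm. A mouse of each group was excluded by the study for contamination without being named, so all 20 mice were kept here.

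Resident macrophages of the heart take up dying cells and debris from the myocytes around them, and their survival depends on signalling through the receptor for colony-stimulating factor 1. Macrophages also return iron to the body. Hemoglobin bound to haptoglobin is taken up by the scavenger receptor CD163, heme is split by heme oxygenase, and iron leaves the phagosome through NRAMP1, the product of *Slc11a1*, and the cell through ferroportin. C1q, the recognition molecule of the classical complement pathway, is built of 3 chains and is made largely by tissue macrophages.

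Genes received 6682177 to 8960688 read pairs in each mouse, with a median of 7902932 in control and 6806177 in IDA hearts. Values are given as CPM, the count of a gene relative to the library total after TMM scaling. Fold changes of IDA against control hearts are on the log2 scale with standard errors (SE), and p-values are those of edgeR's quasi-likelihood test, adjusted over 13590 genes by the method of Benjamini and Hochberg. A gene was called at an adjusted p below 0.05. In whole tissue, fewer cells of a type and less RNA per cell cannot be told apart. The fold changes of all tested genes followed exonic length, with a median of 0.34 in the shortest of 10 length bins and -0.53 in the longest, so the values are given also after a correction for gene length.

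The 3 C1q genes and *Cd68* were higher in IDA hearts, and *Cd163*, *Lyve1* and *Mrc1* were lower, while *Csf1r*, *Emr1* and *Slc11a1* were not called. Thus 4 of the 10 genes were called higher and 3 lower, where 35.0% of all tested genes were called higher and 32.5% lower. No gene of the 10 had groups without overlap, compared with 4.97% of tested genes that lay wholly higher in IDA hearts and 6.28% that lay wholly lower. With the gene length correction, 3 genes were called higher (*Csf1r*, *C1qa* and *C1qb*) and 2 lower (*Cd163* and *Lyve1*), against 31.5% and 23.5% of all genes. Correction for both length and GC content, which was chosen once the data had been examined, called 1 gene higher (*Mrc1*) and 2 lower (*Cd163* and *Lyve1*), against 28.1% and 19.4% of the 13479 genes with a GC content. *Cd163* and *Lyve1* were therefore the genes of the 10 called in the same direction in all 3 fits. The share of all tested genes called in the same direction in all 3 fits was not counted. Their calls in all 3 fits therefore do not set *Cd163* and *Lyve1* apart from other genes. For each of them, some genes of the same length bin had a lower uncorrected fold change.

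**Figure D1:**
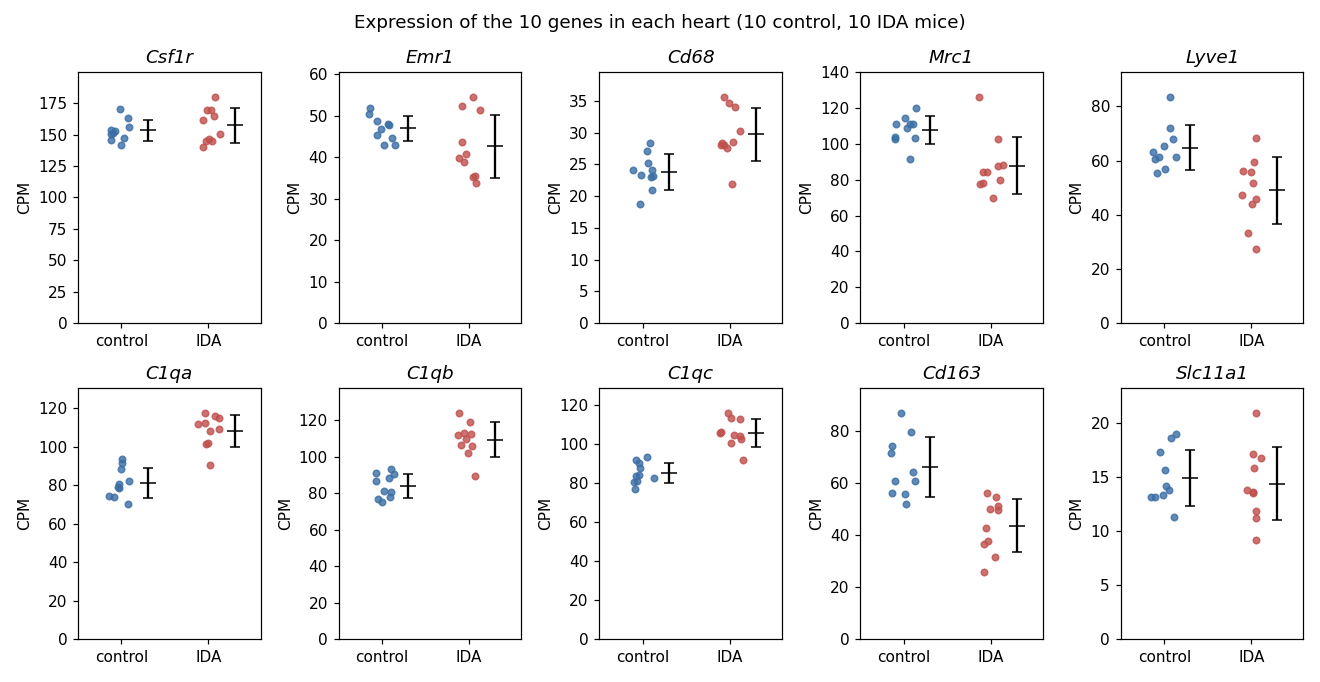
Expression of each gene in CPM (vertical axes from 0) in each control and IDA heart, with the mean and SD of each group of 10 mice beside the points. The C1q genes sit higher and *Cd163* lower in most IDA hearts, with some overlap in every panel.

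Levels were compared between genes as CPM per kb of exon. In control hearts, the C1q chains were at the top, with 80.8 ± 5.02 CPM per kb for *C1qc*, 79.4 ± 6.17 for *C1qb* and 75.2 ± 7.17 for *C1qa* (SD, n = 10). In every control heart *C1qb* and *C1qc* were above *C1qa*, with ratios of 1.007 to 1.11 and of 1.003 to 1.19. The SDs are between mice and do not test differences between genes of the same heart. *Csf1r* followed with 39.6 ± 2.20 CPM per kb. *Lyve1* at 24.8 ± 3.14 and *Cd68* at 23.6 ± 2.77 CPM per kb lay within their spread of each other. *Mrc1* was at 20.3 ± 1.46 CPM per kb, and its range among mice overlapped that of *Cd68*. *Cd163* was at 14.7 ± 2.55 and *Emr1* at 14.5 ± 0.932 CPM per kb, and this pair did not differ beyond the spread. *Slc11a1* was the lowest, with 6.48 ± 1.12 CPM per kb. In IDA hearts, *Cd68* at 29.5 ± 4.07 CPM per kb stood above *Lyve1* at 18.8 ± 4.69. The ranges of *Cd163* at 9.72 ± 2.28 and *Emr1* at 13.1 ± 2.35 CPM per kb overlapped.

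*Csf1r*, the receptor that marks the macrophage lineage, lies on chromosome 18 of mm10 from 61105572 to 61131139. It ranged from 141 to 171 CPM in control hearts with a median of 152, and from 140 to 180 CPM in IDA hearts with a median of 156. The groups overlapped over nearly their whole range, and 5 of 10 IDA mice were above the control mean. The log2 fold change was 0.04 (SE 0.05, adjusted p = 0.497 in edgeR), with an interval of 2 SE from -0.06 to 0.13. With the gene length correction it was 0.21 (adjusted p = 0.00083 in edgeR), and 0.09 with length and GC content (adjusted p = 0.0939).

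*Emr1*, which encodes the adhesion receptor F4/80 used to recognize mouse macrophages, lies on chromosome 17 from 57358686 to 57483529. Control hearts had 42.9 to 51.8 CPM with a median of 47.3, and IDA hearts had 33.8 to 54.6 CPM with a median of 40.4. The IDA hearts were spread wider than the controls, with 6 below the lowest control and 2 above the highest. The log2 fold change was -0.14 (SE 0.08, adjusted p = 0.14 in edgeR; interval of 2 SE from -0.30 to 0.03). The gene was called in 1 of 20 fits that left out a mouse, that without IDA mouse 3 (-0.18, adjusted p = 0.0388 in edgeR).

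*Cd68*, a glycoprotein of the lysosomes of phagocytes, lies on the minus strand of chromosome 11 from 69664371 to 69666062. It had 18.7 to 28.4 CPM in control hearts with a median of 23.7, and 22.0 to 35.6 CPM in IDA hearts with a median of 28.4. The lowest IDA heart was within the control range, and 5 IDA hearts were above every control. The mean rose from 23.8 ± 2.79 to 29.7 ± 4.11 CPM (SD, n = 10 each), a log2 fold change of 0.32 (SE 0.08, adjusted p = 0.0014 in edgeR). *Cd68* has 1008 bp of exon, and the median fold change of its length bin was 0.34. The difference was 0.04 with the gene length correction (adjusted p = 0.671 in edgeR) and was not called.

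*C1qa*, *C1qb* and *C1qc* encode the A, B and C chains of C1q and lie side by side on the minus strand of chromosome 4, from 136880145 (*C1qb*) to 136898844 (*C1qa*). The gap between *C1qb* and *C1qc* is 3624 bp, and that between *C1qc* and *C1qa* is 3001 bp. Promoters of *C1qb* and *C1qc* are shown because these genes rose together, and that of *Cd163* because it fell. Each is the window of 250 bases before the start of the gene in RefSeq (GRCm38.p6, the build of mm10), read 5′ to 3′ on the strand of the gene. Promoter windows were read for 6 of the 10 genes (*Cd163*, *Mrc1*, *Cd68*, *C1qb*, *C1qc* and *Slc11a1*), and none was read on the chromosome of *Csf1r*. Capitals mark GAGGAA, the core recognized by the myeloid factor PU.1, or its reverse complement.
C1qb, chr4:136886201-136886450, minus strand: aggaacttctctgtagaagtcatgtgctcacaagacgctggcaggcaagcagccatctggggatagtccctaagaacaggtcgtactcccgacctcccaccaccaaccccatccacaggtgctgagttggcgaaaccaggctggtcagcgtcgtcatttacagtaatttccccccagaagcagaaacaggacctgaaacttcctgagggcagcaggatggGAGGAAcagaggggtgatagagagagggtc
C1qc, chr4:136892915-136893164, minus strand: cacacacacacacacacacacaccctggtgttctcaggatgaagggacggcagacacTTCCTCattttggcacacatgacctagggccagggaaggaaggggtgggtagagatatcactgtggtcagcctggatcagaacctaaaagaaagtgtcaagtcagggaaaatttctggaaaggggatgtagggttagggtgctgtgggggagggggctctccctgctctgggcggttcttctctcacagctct
Cd163, chr6:124304401-124304650, plus strand: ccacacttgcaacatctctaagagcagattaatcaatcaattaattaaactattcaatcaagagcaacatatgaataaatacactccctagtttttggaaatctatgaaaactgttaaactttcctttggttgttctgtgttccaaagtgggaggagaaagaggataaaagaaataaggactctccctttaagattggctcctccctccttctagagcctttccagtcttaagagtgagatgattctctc

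GAGGAA, searched on both strands, lay at -30 to -25 from the start of *C1qb* and, on the other strand, at -193 to -188 from that of *C1qc*. Windows of *Mrc1*, *Cd68* and *Slc11a1* held it too, with 3 matches in *Mrc1*, and that of *Cd163* held none. Of 32851 promoter windows of 250 bases, 23.3% held these letters. TGACNNNGC, the core of sites for MAF and NRF2 proteins, was found in *C1qb* alone among the 6, at -103 to -95, and in 10.2% of all windows. CACGTG, the E-box, was in none of the 6 windows and in 6.02% of all.

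*C1qa* ranged from 70.4 to 93.7 CPM in control hearts with a median of 79.9, and from 90.5 to 117 CPM in IDA hearts with a median of 110. *C1qb* was at 75.6 to 93.2 CPM in controls (median 84.1) and at 89.6 to 124 CPM in IDA hearts (median 111). *C1qc* was at 76.9 to 93.2 CPM in controls (median 84.0) and at 91.6 to 116 CPM in IDA hearts (median 105). For each chain, 9 of 10 IDA hearts were above every control heart, and the exception was IDA mouse 7 each time. The log2 fold changes were 0.41 for *C1qa* (SE 0.05, adjusted p = 1.24e-06 in edgeR), 0.38 for *C1qb* (SE 0.05, adjusted p = 2.18e-06) and 0.31 for *C1qc* (SE 0.04, adjusted p = 2.32e-06). These are short genes, of 1054 to 1082 bp of exon, and the median of their length bin was 0.34. After the gene length correction, *C1qa* and *C1qb* were still called, at 0.14 (adjusted p = 0.00347 in edgeR) and 0.10 (adjusted p = 0.0285), and *C1qc* was not, at 0.03 (adjusted p = 0.368). After the correction for length and GC content, the 3 values were -0.01, -0.01 and -0.07, and none was called. Duplicates had been removed without molecular identifiers, and the C1q genes held 0.524 to 0.934 read pairs per exonic base, where the highest value of any gene was 2.39. The part of duplicate removal, length and GC content in these differences was not tested.

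In CPM without correction for length or GC content, the 3 chains moved together from mouse to mouse. They lie in the same length bin, with a GC content of 56.6% to 59.5%. The permutations do not account for a trend shared by genes of like length and GC content, and its part here was not tested. Among the 10 control hearts, Pearson's r of log2 CPM was 0.912 for *C1qa* with *C1qb*, 0.816 for *C1qa* with *C1qc* and 0.912 for *C1qb* with *C1qc* (permutation p = 0.00022, 0.00473 and 0.00035; adjusted over 6 relations, 0.000525, 0.00473 and 0.000525). Among the 10 IDA hearts, r was 0.958, 0.895 and 0.927 (permutation p = 3e-05, 0.00048 and 0.00028; adjusted 0.00018, 0.000576 and 0.000525). Spearman's rho was 0.879 to 0.976 over the 6 relations, with adjusted permutation p-values from 6e-05 to 0.0014. Without the 2 mice farthest from the median, r lay between 0.605 (*C1qa* with *C1qc* in controls) and 0.919. The ratio of *C1qb* to *C1qa* per kb had a median of 1.05 in control and 1.02 in IDA hearts, and that of *C1qc* to *C1qa* 1.08 and 1.01.

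*Mrc1*, the mannose receptor CD206, lies on chromosome 2 from 14229414 to 14332023. Control hearts had 91.7 to 120 CPM with a median of 110, and IDA hearts had 69.7 to 126 CPM with a median of 84.2. Of the IDA hearts, 8 were below every control, and IDA mouse 5 was above every control. The log2 fold change was -0.29 (SE 0.08, adjusted p = 0.00218 in edgeR), and -0.37 without IDA mouse 5 (adjusted p = 1.06e-05). *Mrc1* has 5318 bp of exon, in a length bin whose median was -0.32. The gene length correction gave 0.02 (adjusted p = 0.756 in edgeR), and that for length and GC content gave 0.27 (adjusted p = 0.00104), so its direction was not the same in the 3 fits.

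*Lyve1*, a hyaluronan receptor of resident macrophages that lymphatic endothelium also carries, lies on the minus strand of chromosome 7 from 110850607 to 110862953. It had 55.5 to 83.5 CPM in control hearts with a median of 62.3, and 27.3 to 68.3 CPM in IDA hearts with a median of 49.6. The groups overlapped, with 6 IDA hearts below every control and 9 below the control mean. The log2 fold change was -0.40 (SE 0.12, adjusted p = 0.00492 in edgeR), -0.42 with the gene length correction (adjusted p = 0.0044) and -0.34 with length and GC content (adjusted p = 0.018). The median of its length bin was 0.06. With log2 library size or the erythroid markers as a covariate, the value was -0.33 (adjusted p = 0.0544 in edgeR) or -0.39 (adjusted p = 0.103).

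Some markers of lymphatic endothelium were also lower. Of 6 listed, 4 passed the filter, with 3 lower and 1 higher, where 32.5% of all tested genes were lower and 35.0% higher. *Prox1*, the transcription factor that sets lymphatic identity, had 92.0 ± 20.1 CPM in control and 46.6 ± 14.0 CPM in IDA hearts (log2 fold change -0.98, adjusted p = 7.54e-06 in edgeR), *Reln* changed by -0.71 and *Flt4* by -0.34, whereas *Pdpn* changed by 0.43. With the gene length correction, only *Prox1* of these 4 was called, at -0.78, and the median of the list was -0.0034, and with length and GC content *Prox1* (-0.82) and *Flt4* (-0.18, adjusted p = 0.00739 in edgeR) were. *Ccl21a* and *Mmrn1* were at 0 in every mouse, for a reason that was not tested. The summed level of the list was 144 to 221 CPM in control and 108 to 165 CPM in IDA hearts. Most of it came from *Prox1* and *Flt4* (means of 92.0 and 73.0 CPM in control hearts). Whether these reads came from lymphatic endothelium or other cells of the heart was not tested. The part of lymphatic endothelium in the lower *Lyve1* was not tested either.

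*Cd163*, the scavenger receptor for hemoglobin and haptoglobin, lies on chromosome 6 from 124304651 to 124330527. It ranged from 51.8 to 86.8 CPM in control hearts with a median of 62.5, and from 26.1 to 56.2 CPM in IDA hearts with a median of 46.2. All 10 IDA hearts were below the control mean, and 8 were below every control. The mean fell from 66.2 ± 11.5 to 43.6 ± 10.3 CPM (SD, n = 10 each), a log2 fold change of -0.61 (SE 0.12, adjusted p = 0.000162 in edgeR). It was -0.36 with the gene length correction (adjusted p = 0.00634 in edgeR) and -0.28 with length and GC content (adjusted p = 0.0295). The median of its length bin was -0.20. It was called in all 20 fits without a mouse and in all 100 fits without a mouse of each group, which gave -0.69 to -0.49.

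*Slc11a1*, the metal transporter NRAMP1 of the phagosome, lies on chromosome 1 from 74375203 to 74386051. It had 11.3 to 19.0 CPM in control hearts with a median of 13.9, and 9.19 to 20.9 CPM in IDA hearts with a median of 13.7. The groups overlapped throughout. The log2 fold change was -0.05 (SE 0.12, adjusted p = 0.735 in edgeR), with an interval of 2 SE from -0.30 to 0.20. With 59 to 167 read pairs per mouse, it was the least counted of the 10 genes.

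**Figure D2:**
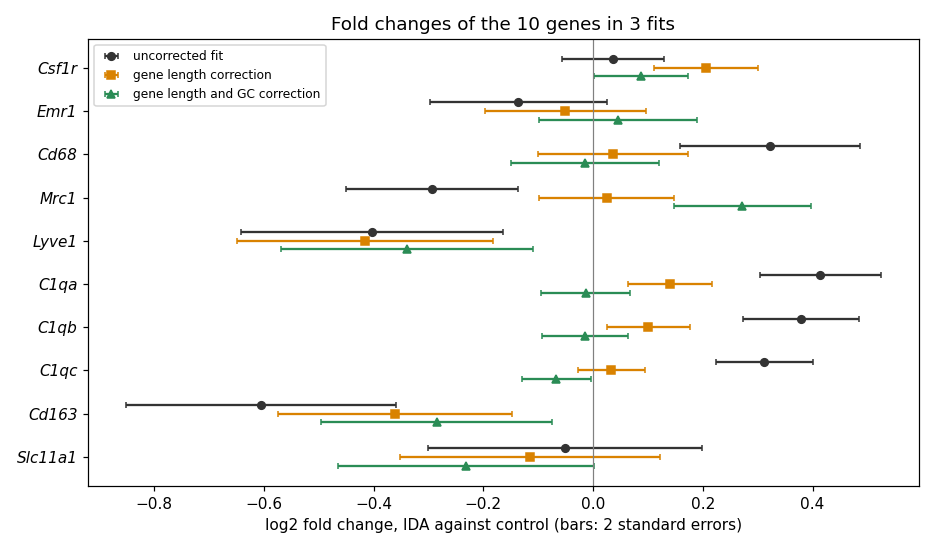
Log2 fold change of IDA against control hearts for each gene in 3 fits (uncorrected, with the gene length correction, and with length and GC content), with bars of 2 standard errors. *Cd163* and *Lyve1* stay below 0 in all 3, the C1q genes move from 0.31 to 0.41 down to -0.07 to -0.01, and *Mrc1* moves from -0.29 to 0.27.

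**Figure D3:**
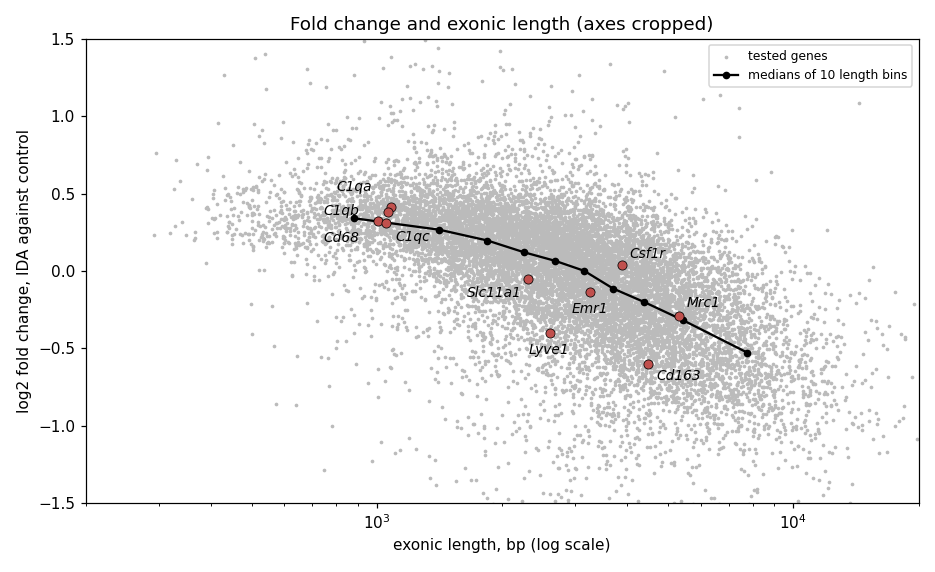
Log2 fold change against exonic length in bp (log axis) for the tested genes (grey), the 10 genes (red) and the medians of 10 length bins (line), with both axes cropped. The line falls from 0.34 to -0.53, with the C1q genes, *Cd68* and *Mrc1* near it and *Lyve1* and *Cd163* below it.

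The genes were also set against *Csf1r* in the same heart, as the difference of log2 CPM. For *Cd163*, the median of this difference was -1.28 in control and -1.76 in IDA hearts, and 8 IDA hearts lay below every control. *Lyve1* shifted by -0.39 and *Mrc1* by -0.37, with 8 and 7 IDA hearts below every control. The C1q genes shifted the other way, by 0.40 for *C1qa*, 0.44 for *C1qb* and 0.33 for *C1qc*, with 9, 9 and 8 IDA hearts above every control. *Cd68* shifted by 0.23, *Emr1* by -0.19 and *Slc11a1* by 0.01. Per kb, the ratio of *Cd163* to *C1qa* had a median of 0.196 in control hearts (0.133 to 0.259) and 0.0995 in IDA hearts (0.0545 to 0.150). These shifts compare genes of different length, and no test was made of them.

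**Figure D4:**
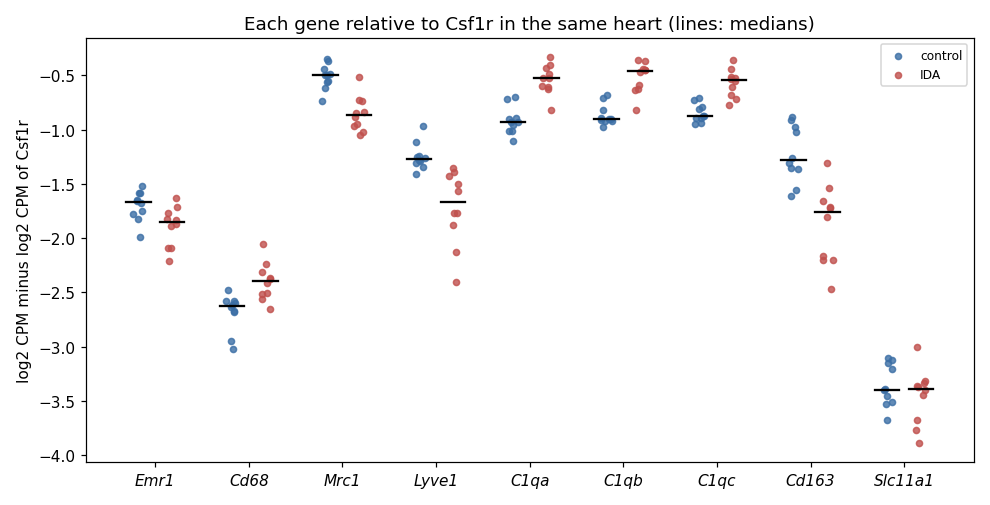
Difference of log2 CPM between each gene and *Csf1r* in the same heart, with 10 control and 10 IDA hearts as points and medians as lines. *Cd163*, *Lyve1* and *Mrc1* shift down by 0.37 to 0.48 in IDA hearts, and the C1q genes shift up by 0.33 to 0.44.

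Column names carry library numbers in a lower set (5 control and 7 IDA mice) and an upper set (5 control and 3 IDA mice), and the labels do not say what the numbers stand for. *Cd163* had a log2 fold change of -0.54 in the lower set and -0.97 in the upper set. *Lyve1* had -0.32 and -0.67, and *C1qa* had 0.44 and 0.38. *Mrc1* had -0.32 in the lower set and -0.28 in the upper, where it was not called (adjusted p = 0.0718 in edgeR).

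Among 25 other genes of resident macrophages, 23 passed the filter; 14 of them were higher (60.9%, against 35.0% of all genes) and 3 lower (5 without IDA mouse 5, against 32.5% of all genes), with a median log2 fold change of 0.30 against 0.02 over all tested genes. Among the genes called higher, the largest fold changes were those of *Pf4*, a chemokine of platelets and macrophages (0.86, adjusted p = 1.88e-06 in edgeR), and of *Ms4a7*, a membrane protein of macrophages (0.61, adjusted p = 0.00204). *Mertk*, the receptor by which macrophages engulf dying cells, fell most, from 29.7 ± 5.72 to 15.6 ± 3.88 CPM (-0.93, adjusted p = 2.9e-06 in edgeR), with *Maf* at -0.36 and *Cx3cr1* at -0.34. With the gene length correction, 7 were higher (30.4%, against 31.5% of all genes) and 1 lower (4.35%, against 23.5%; *Mertk*, -0.81), and the median was 0.16. In that fit *Pf4* was at 0.50 and *Ms4a7* at 0.44, while *Maf* (-0.23, adjusted p = 0.0507 in edgeR) and *Cx3cr1* (-0.18, adjusted p = 0.255) were not called. Length and GC content together gave 8 higher (34.8%, against 28.1% of all genes) and 2 lower (8.70%, against 19.4%), with *Pf4* at 0.54, *Ms4a7* at 0.63 and *Mertk* at -0.72.

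Of 18 genes of the CSF1 receptor axis and of myeloid regulation, 11 were higher (61.1%, against 35.0% of all genes) and 3 lower (16.7%, against 32.5%), with a median of 0.32. *Csf1*, the main ligand, was at -0.21 (adjusted p = 0.00857 in edgeR), and *Il34*, the other ligand, at 0.31 (adjusted p = 0.0185). *Sfpi1*, the gene of PU.1, was at 0.55 (adjusted p = 0.000448 in edgeR), *Trem2* at 0.61, *Dok2* at 0.57 and *Ptprc* at -0.49. With the gene length correction, 7 genes were higher (38.9%, against 31.5% of all genes), among them *Sfpi1* at 0.32 and *Dok2* at 0.40. In that fit 0 were lower in edgeR (0 also at an unadjusted p below 0.05), against 23.5% of all genes. Of the genes named here, calls were lost by *Csf1* (0.03, adjusted p = 0.712 in edgeR), *Il34* (0.17, adjusted p = 0.222), *Trem2* (0.34, adjusted p = 0.114) and *Ptprc* (-0.14, adjusted p = 0.377). Length and GC content together gave 3 higher (16.7%, under the 28.1% of all genes) and 1 lower (5.56%, against 19.4%). *Sfpi1* was not called there (0.21, adjusted p = 0.118 in edgeR).

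Of 21 tested complement genes beside C1q, 7 were higher (33.3%, against 35.0% of all genes) and 4 lower (19.0%, against 32.5%), with a median of 0.15. *Cfp*, which encodes properdin, rose by 0.67 and *Cfb* by 0.34, while *C7* changed by -0.49 and *Itgam*, a chain of complement receptor 3, by -0.37. Of the proteases that act with C1q, *C1s* was at -0.16 (adjusted p = 0.00749 in edgeR) and *C1ra* at 0.12 (adjusted p = 0.053). *C1ra* was called after correction for length (0.13, adjusted p = 0.0278 in edgeR) and for length and GC content (0.14, adjusted p = 0.0222), and *C1s* was called after the first (-0.11, adjusted p = 0.0334) and not after the second (-0.04, adjusted p = 0.491). After correction for length, 6 complement genes were higher (28.6%, against 31.5% of all genes) and 4 lower (19.0%, against 23.5%). In that fit *Cfp* was at 0.46, *Cfb* at 0.35 and *C7* at -0.49, and *Itgam* was not called (-0.11, adjusted p = 0.501 in edgeR). With length and GC content, 9 were higher (42.9%, against 28.1% of all genes) and 1 lower (4.76%, against 19.4%). *Cfb* was not called there (0.30, adjusted p = 0.078 in edgeR). The list of scavenger receptors, with 13 tested genes, also holds the receptor kinases *Tyro3* and *Mertk*, the latter counted above as well. Of these genes, 2 were higher (15.4%, against 35.0% of all genes), namely *Stab2* (0.59) and *Tyro3* (0.41). A further 4 were lower (30.8%, against 32.5%), among them *Mertk* and *Scara5* (-0.33), and the median was -0.12. The gene length correction gave 5 higher and 3 lower, near the shares of all genes (38.5% against 31.5%, and 23.1% against 23.5%). The median was 0.03 there, with *Stab2* at 1.10, *Tyro3* at 0.60 and *Scara5* at 0.02 (adjusted p = 0.89 in edgeR). With length and GC content, 4 genes of this list were higher (30.8%, against 28.1% of all genes) and 2 lower (15.4%, against 19.4%).

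In the list of iron recycling and heme handling, 9 of 20 tested genes were higher (45.0%, against 35.0% of all genes) and 5 lower (25.0%, against 32.5%), with a median of 0.17. *Slc40a1*, the gene of ferroportin, fell from 74.5 ± 9.84 to 39.6 ± 9.43 CPM, a log2 fold change of -0.91 (adjusted p = 6e-07 in edgeR) and -0.81 with the gene length correction. *Bach1*, a repressor of heme oxygenase that heme inactivates, was at -0.93 and -0.57 with the correction. *Blvrb*, a biliverdin reductase, was at 0.70 (0.38 with the correction) and *Tfrc*, the transferrin receptor, at 0.41 (0.69). *Hmox1*, the inducible heme oxygenase, was at 0.20 (adjusted p = 0.251 in edgeR) and was not called. Of 26 lysosomal genes, 18 were higher (69.2%, against 35.0% of all genes) and 3 lower (11.5%, against 32.5%), with a median of 0.16, which included *Lyz1* at 0.73, *Ctsz* at 0.42, *Npc1* at -0.50 and *Lamp2* at -0.36. After correction for length, 10 lysosomal genes were higher (38.5%, against 31.5% of all genes) and 3 lower (11.5%, against 23.5%). In that fit *Ctsz* was at 0.19, *Npc1* at -0.19 and *Lamp2* at -0.17, and *Lyz1* was not called (0.48, adjusted p = 0.0512 in edgeR). After correction for length and GC content, 9 were higher (34.6%, against 28.1% of all genes). There, 0 were lower in edgeR (0 also at an unadjusted p below 0.05), against 19.4% of all genes. *Lyz1* was called (0.58, adjusted p = 0.0242 in edgeR). *Ctsz* (0.08, adjusted p = 0.211), *Npc1* (-0.09, adjusted p = 0.299) and *Lamp2* (0.06, adjusted p = 0.177) were not called in edgeR, with the direction of *Lamp2* turned.

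**Figure D5:**
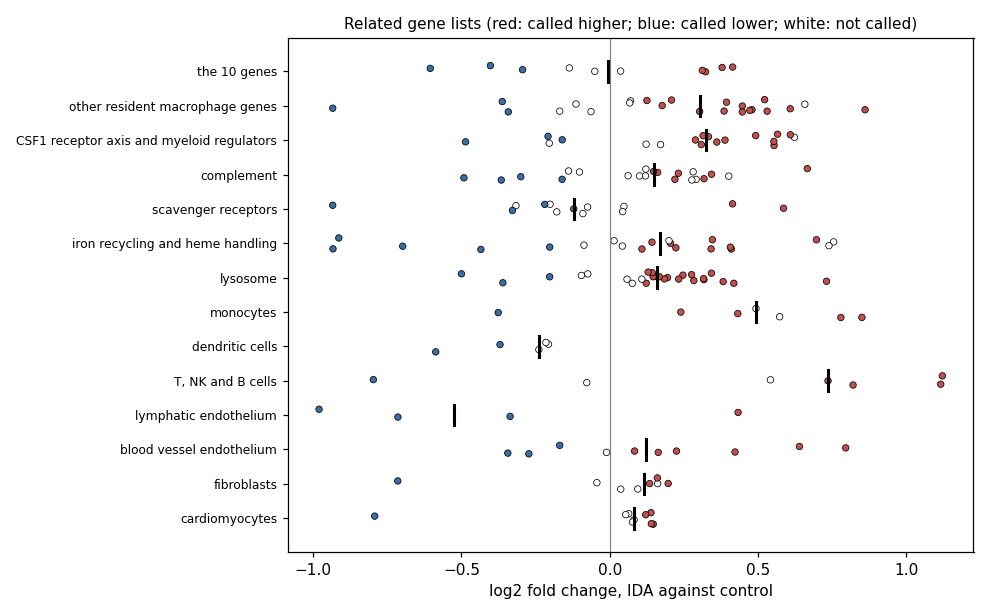
Log2 fold change of IDA against control hearts for each tested gene of the 10 and of 13 related lists (red called higher, blue called lower, white not called; black lines are medians). The other resident macrophage genes have a median of 0.30, and the 10 genes lie on both sides of 0.

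Lists of other leukocytes were counted beside these. Of 5 tested neutrophil genes, 4 were higher, among them *S100a9* (2.35, adjusted p = 0.000652 in edgeR) and *Ltf* (2.14). The median of *Ltf* was 0.572 CPM in control and 1.99 CPM in IDA hearts, and IDA mouse 5 reached 22.6 CPM. The summed level of the neutrophil list was 4.39 to 26.3 CPM in control and 9.99 to 163 CPM in IDA hearts. Of 7 tested monocyte genes, 4 were higher (*Gngt2*, 0.78; *Nr4a1*, 0.85) and *Ccr2* was lower (-0.38), but 2 were higher in 5 of the 20 fits without a mouse (control mouse 4 or 7, or IDA mouse 1, 4 or 5), and *Ccr2* was not called in 7 (control mouse 4, 6, 7 or 9, or IDA mouse 7, 8 or 9). Of 5 tested dendritic cell genes, *Zbtb46* (-0.59) and *Clec9a* (-0.37) were lower. Of 7 tested lymphocyte genes, 4 were higher, among them *Cd79a* and *Cd79b* (1.12 each), and *Cd247* was lower (-0.80). These lists hold few genes, and 35.0% of all tested genes were higher and 32.5% lower. Corrected for length, *S100a9* was at 2.01, *Ltf* at 2.14, *Gngt2* at 0.43, *Nr4a1* at 0.81, *Zbtb46* at -0.49, *Clec9a* at -0.28, *Cd79a* at 0.90 and *Cd79b* at 0.87, and calls were lost by *Ccr2* (-0.24, adjusted p = 0.17 in edgeR) and *Cd247* (-0.54, adjusted p = 0.097). With length and GC content, *Nr4a1* (0.68, adjusted p = 0.0978 in edgeR) and *Clec9a* (-0.12, adjusted p = 0.391) were not called either. With the erythroid list as a covariate in edgeR, 27.3% of all genes were called higher and 26.9% lower. In that fit 0 of the neutrophil and 0 of the lymphocyte genes were called and 0 of either had an unadjusted p below 0.05, with *S100a9* at 0.38 (SE 0.83) and *Cd79a* at 0.81 (SE 0.53). The covariate itself differs between the diets, with a summed level from 171 CPM in the lowest control heart to 854 CPM in the highest IDA heart and little overlap, so this fit can take out the difference between diets itself. Of the erythroid genes, *Slc4a1* was higher (4.04), while *Hba-a1*, *Hba-a2* and *Hbb-b2* were at 0 in every mouse. These counts of 0 are not taken as absence of globin RNA, and their cause was not tested. Of the other lists, 6 of 10 blood vessel genes were higher and 3 lower, 3 of 8 fibroblast genes higher (37.5%, against 35.0% of all genes) and 1 lower, and 4 of 9 cardiomyocyte genes higher (44.4%) and 1 lower. Without control mouse 6, 5 fibroblast genes were higher. The cardiomyocyte count of 4 fell to 2 without control mouse 7 or 9 or IDA mouse 1 or 10, to 1 without IDA mouse 6, and to 0 without control mouse 8 in edgeR (2 at an unadjusted p below 0.05). Corrected for length, these became 5 higher and 1 lower for blood vessels, and 3 higher and 2 lower for fibroblasts. For cardiomyocytes they became 2 higher (22.2%) and 6 lower (66.7%). In that fit 31.5% of all genes were higher and 23.5% lower. With length and GC content, 3 cardiomyocyte genes were higher (33.3%, against 28.1% of all genes) and 6 lower (66.7%, against 19.4%). The part of these cells in the values of the 10 genes was not tested.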

How the data were processed

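Poly-A mRNA of pulverized heart tissue was sequenced in pairs. Per the labels and the study's methods, STAR was used by the authors for alignment to mm10, duplicates were taken out, and featureCounts (1.4.5-p1) counted pairs on exons, ignoring strand. The counts were deposited without normalization for 23420 genes with their exonic length in bp. Mice were grouped by the diet in their labels, and replicates are separate mice. The 13590 genes that reached 1 CPM in 10 or more mice were scaled by TMM and tested in edgeR 4.0.16 (R 4.3.3) by the quasi-likelihood test with diet as the only factor. SE was derived from the fold change and its F statistic. The 10 genes share no exon with another gene of the annotation used.

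The gene length correction removed, per mouse, a loess curve (span 0.5, degree 1) on log2 exonic length, through edgeR offsets, and takes out any trend on length, technical or biological. GC content came from GENCODE transcripts. Alternatives were DESeq2 1.42.0, limma 3.58.1 (voom), other scalings and filters, covariates, a replicate block and left-out mice. The members, the 15 related lists and the tests were chosen with earlier results of these data known. Named genes were all members and, from each list, up to 2 higher and 2 lower calls with the largest fold change; *Flt4*, *Cx3cr1*, *Il34*, *Sfpi1*, *C1s*, *C1ra* and *Hmox1* were added after their values were seen. Some genes that this rule picks are left out here. Correlations used 100000 permutations. The steps were tested on simulated data. No 2 mice had identical counts.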

Additional observations from a re-analysis of the deposited data

Results flagged for a closer look

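Values in CPM were searched, in each group of 10 mice, for a mouse whose gap to the nearest other mouse was large against the range of the group, by Dixon's critical value for 10 samples. The 10 genes and 47 genes picked from the lists by the rule for named genes gave 114 tests. Of these tests 8 passed, and chance passes about 1 in 20 groups. None of the 8 was in the 10 genes. Some of the 47 are not named above, and the genes added after their values were seen were not searched. In IDA mouse 5, *Ptprc* was at 30.1 CPM (nearest mouse 21.9), *Itgam* at 29.7 (18.1), *Ltf* at 22.6 (9.50) and *Cd79b* at 10.4 (5.61). In IDA mouse 4, *Trem2* was at 12.5 CPM (7.37) and *Pdpn* at 25.5 (16.7). In IDA mouse 9, *Blvrb* was at 55.9 CPM (42.2). In control mouse 6, *Pdpn* was at 16.6 CPM (11.7). Without IDA mouse 5, which was also the highest for *Mrc1*, the log2 fold change was -0.65 for *Cd163*, -0.47 for *Lyve1* and 0.42 for *C1qa*.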

How the results depend on the processing

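With the correction for gene length and GC content (added after the data were examined), 1 gene was called higher in place of 4, and the log2 fold changes changed sign to 0.046 for *Emr1*, 0.27 for *Mrc1*, -0.0139 for *Cd68*, -0.0136 for *C1qa*, -0.0142 for *C1qb* and -0.067 for *C1qc*. The gene length correction gave *Mrc1* 0.025. With log2 library size as a covariate, 1 gene was called lower in place of 3 (*Cd163*), and library size differs between the groups. *Slc11a1* was 0.14 with the erythroid list as a covariate, 0.13 with library size and 0.031 within the upper set of library numbers. Over the 20 fits without a mouse, it ranged from -0.13 to 0.0046, and over the 100 fits without a mouse of each group from -0.16 to 0.049, where *Csf1r* ranged from -0.0038 to 0.073. The cause was not tested. The replicate numbers did not pair the mice (correlations of deviations from -0.28 to 0.26, and 3 of 10 control mice correlated best with their own number). With the replicate block, 8912 genes in place of 9177 were called, the 10 genes kept 4 higher and 3 lower calls, and with the block and the gene length correction *Mrc1* was at 0.015. In the related lists, 486 of the counts under alternatives were within 1.5 times the reported count and 114 were not.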
